A study of Mus musculus with 21 samples.

Results

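The comparison described here sets the dorsal against the lateral wall of the subventricular zone (SVZ) of CD1 mice at postnatal day 1 (P1). It rests on 6 of the 21 small RNA libraries of the series, 3 of dorsal and 3 of lateral SVZ, chosen by their labelled tissue and age, and on the rows of the deposited table typed as microRNA, 1445 of 45633. Of these microRNA features, 807 reached a value of 10 in 3 or more of the 21 libraries and were tested. The other libraries came from dorsal and lateral SVZ at P6 and from rostral migratory stream and olfactory bulb at P15 and P28. All are dissected tissue of the same strain with no further treatment or genotype in the labels, and the labels do not say how many animals went into a library or whether replicates are separate animals, so every p-value measures the spread between these samples.

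The SVZ lines the lateral ventricles and keeps making neurons after birth, which migrate along the rostral migratory stream to the olfactory bulb. Stem cells of its dorsal wall descend from the embryonic pallium and those of its lateral wall from the ganglionic eminences, and they are known to give rise to different kinds of olfactory bulb interneurons, with the dorsal wall also a source of glutamatergic cells and oligodendrocytes in the first days of life. A microRNA is cut from a hairpin precursor, and bases 2 to 8 of the mature strand, the seed, pair with target messenger RNAs, so members of a family that share a seed can recognise overlapping sets of targets.

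The mature sequences of the microRNAs on which the comparison turns are given first, 5′ to 3′, from the RefSeq table of build GRCm38.p6, with the seed in capitals. The deposited names are older than the table's, and most features were matched to the later name of the same strand. The first set holds neuron-enriched microRNAs, the miR-7 pair, miR-193b with miR-193 and miR-365, and the unlisted miR-873 and miR-551b, all lower in the dorsal wall. Each of its seeds differs from the others except in the pairs miR-7a with miR-7b and miR-193b with miR-193.
miR-153: uUGCAUAGucacaaaagugauc
miR-138: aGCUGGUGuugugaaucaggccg
miR-218: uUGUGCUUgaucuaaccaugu
miR-137: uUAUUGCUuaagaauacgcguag
miR-7a: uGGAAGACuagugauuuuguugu
miR-7b: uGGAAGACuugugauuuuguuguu
miR-193b: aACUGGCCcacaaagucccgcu
miR-193: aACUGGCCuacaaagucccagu
miR-365: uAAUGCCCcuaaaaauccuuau
miR-873: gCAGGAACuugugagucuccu
miR-551b: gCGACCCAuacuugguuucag

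The second set holds the miR-15/16 family, shown because its members share the seed AGCAGCA and yet differed in direction between the walls.
miR-195: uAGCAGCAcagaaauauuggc
miR-497: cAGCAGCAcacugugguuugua
miR-16: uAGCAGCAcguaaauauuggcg
miR-15a: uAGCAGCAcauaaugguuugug
miR-15b: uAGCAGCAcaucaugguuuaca
miR-322: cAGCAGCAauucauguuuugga

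The third set holds 3 relatives, miR-130a, miR-130b and miR-301a, which share the seed AGUGCAA and of which only miR-130b passed the test here.
miR-130a: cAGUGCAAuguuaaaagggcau
miR-130b: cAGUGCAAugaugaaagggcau
miR-301a: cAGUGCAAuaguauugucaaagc

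The fourth set holds microRNAs that were higher in the dorsal wall, together with miR-100, which shares its seed with miR-99a, and miR-9, the other strand of the hairpin of miR-9*.
miR-574-3p: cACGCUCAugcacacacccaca
miR-9*: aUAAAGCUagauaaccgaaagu
miR-9: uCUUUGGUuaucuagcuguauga
miR-451: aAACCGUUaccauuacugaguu
miR-23a: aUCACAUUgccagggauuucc
miR-99a: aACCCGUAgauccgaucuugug
miR-100: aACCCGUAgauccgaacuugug

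The fifth set shows microRNAs of the imprinted Dlk1-Dio3 cluster, all different in seed. miR-381 and miR-300 are included because they resemble each other over most of their length and may share reads.
miR-127: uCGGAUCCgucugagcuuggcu
miR-411: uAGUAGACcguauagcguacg
miR-370: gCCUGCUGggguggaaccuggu
miR-433: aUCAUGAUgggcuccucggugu
miR-544-3p: aUUCUGCAuuuuuagcaagcuc
miR-539-5p: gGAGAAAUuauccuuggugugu
miR-381: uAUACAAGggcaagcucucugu
miR-300: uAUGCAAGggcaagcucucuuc

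The deposited values are normalized scores in whole numbers without a unit, and the read depth of each library is unknown. In the 6 libraries the values at a given rank were the same up to 1 factor per library: after division by the highest value the coefficient of variation was 0.00024% at rank 10 and 0.598% at rank 1000. A score therefore carries a microRNA's rank, and at the top of the table a step of 1 rank changes it by a fixed ratio. MicroRNAs took 67% to 73.7% of the total score in the dorsal and 73.3% to 80.8% in the lateral libraries, and tRNA took 10.5% to 16.4% and 6.45% to 11.7%. The number of microRNA features above 0 was 806 to 861 in the dorsal and 880 to 930 in the lateral libraries. The part of these differences in the results below was not tested. Log2 values of libraries of the same wall correlated with r of 0.946 to 0.964 and those of different walls with r of 0.913 to 0.938. The labelled brain tissue was checked by its markers: miR-124, the most abundant neuronal microRNA, scored at least 72251 and miR-9, of neural progenitors, at least 72324 in each of the 6 libraries, while the liver microRNA miR-122 scored at most 15.

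Of the 807 features, 181 (22.4%) differed between the walls at an adjusted p under 0.05 (limma with a mean-variance trend on log2(score + 1), Benjamini-Hochberg adjustment). Nearly all lay in the same direction: 167 (20.7%) were lower and 14 (1.73%) higher in the dorsal wall, and 168 of the differences were at least 2-fold. The lower features comprised 110 of the 397 mature forms named without an asterisk, 29 of the 183 star forms, a name first given to the less abundant strand of a hairpin, and 28 of the 227 hairpins. In 193 features (23.9%) all 3 lateral libraries lay above all 3 dorsal ones, and in 26 (3.22%) the reverse. The median log2 fold change, dorsal minus lateral, was -0.41, so a member near that value stands where the typical feature stands. The balance of the calls depended on scaling. With factors computed by the trimmed mean of M values the median was -0.17 and 34 of 180 calls were higher in the dorsal wall, or 18.9% in place of 7.73%. After centring each library on its median microRNA the median was 0.20 and 103 of 217 calls were higher, or 47.5%.

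**Figure D1:**
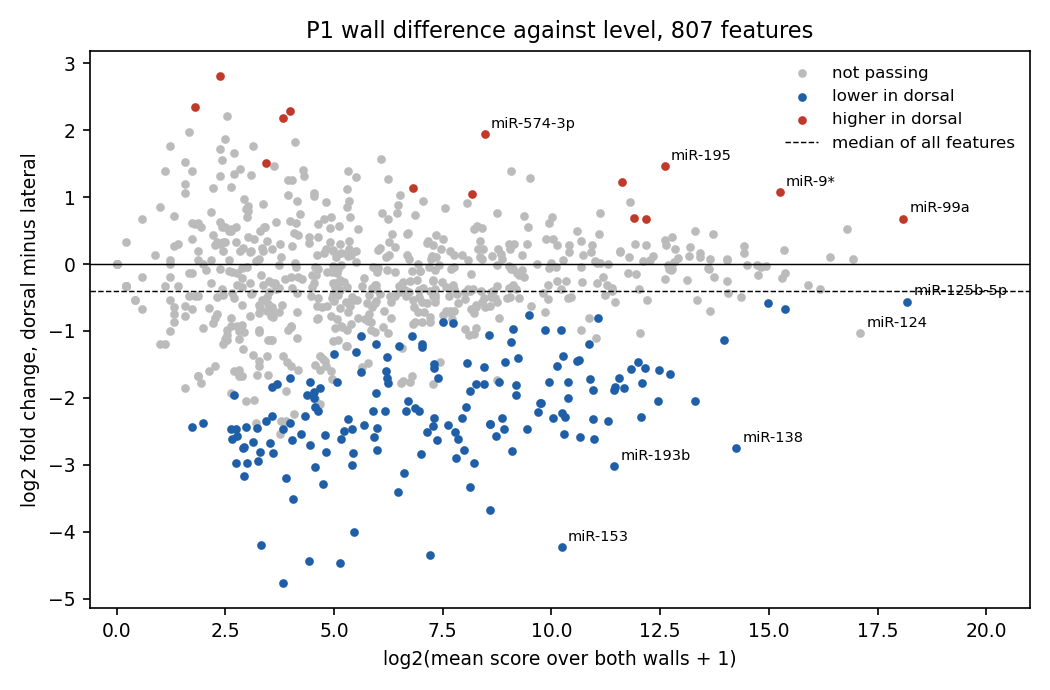
Each of the 807 points is a tested microRNA feature, with the log2 of its mean score over both walls plus 1 on the horizontal axis and the log2 fold change, dorsal minus lateral, on the vertical axis. Blue points are lower and red points higher in the dorsal wall at an adjusted p under 0.05, grey points did not pass, the solid line marks 0 and the dashed line the median of -0.41. The 167 blue points run over nearly the whole range of levels, up to miR-125b-5p, with miR-153 at -4.23, and only 14 points are red.

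Among neuron-enriched microRNAs, 13 of 38 tested features (34.2%, against 20.7% of all features) were lower in the dorsal wall, none was higher and 25 did not pass, with a median of -1.10 against -0.41 over all features. With libraries centred on the median microRNA 8 were lower and 1 higher. In bulk tissue, fewer cells of a type and less of a microRNA per cell cannot be told apart.

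miR-153, a brain microRNA whose hairpin lies in an intron of Ptprn2, a gene of dense-core vesicles, scored 113, 125 and 121 in the 3 dorsal libraries and 2371, 2729 and 1772 in the lateral ones. The walls were far from overlapping, and the dorsal values stood close together. The difference was 18.7-fold (log2 fold change -4.23 ± 0.26 SE, 95% interval -4.77 to -3.68, adjusted p = 8.35e-11 by limma), the smallest p of all features. In rank, miR-153 stood at place 259.5 to 307 among the microRNA features in the dorsal and at 93 to 110 in the lateral libraries. Its hairpin feature scored 14 to 30 in the dorsal and 153 to 208 in the lateral wall (-3.12 ± 0.52). The libraries of rostral migratory stream and olfactory bulb, at older ages, scored 386 to 834, above the dorsal and below the lateral range.

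miR-138, which is known to act at synapses and dendritic spines, scored 7052, 3887 and 4286 in the dorsal and 38281, 39565 and 23462 in the lateral wall. The lowest lateral library thus stood well above the highest dorsal one, and the fit gave a 6.71-fold difference (-2.75 ± 0.24, adjusted p = 1.81e-08 by limma). Of its precursors, pre-mir-138-1 scored 47 to 55 and 221 to 327 (-2.30 ± 0.29). The other precursor, pre-mir-138-2, scored 16, 6 and 16 against 51, 52 and 13 and did not pass (-1.42 ± 0.54, adjusted p = 0.0663 by limma), and its star form miR-138-2*, at 15 or less, gave -0.04 ± 0.74.

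miR-218, encoded within introns of Slit2 and Slit3, genes of axon guidance proteins, and enriched in motor neurons, scored 4620, 3639 and 3569 in the dorsal and 14756, 19431 and 14479 in the lateral wall. The difference was 4.1-fold (-2.04 ± 0.21, adjusted p = 1.8e-07 by limma), and the walls did not overlap. The star form miR-218-2*, which only the copy in Slit3 carries, was listed at 0 in all 3 dorsal libraries and scored 30, 28 and 21 in the lateral ones. The hairpin of the same copy, pre-mir-218-2, scored at most 7 in any library (-0.47 ± 0.82), and the star form of the Slit2 copy, miR-218-1*, at most 10 (0.49 ± 0.70), and neither passed.

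miR-137, linked to neuronal maturation, scored 2368, 2353 and 1782 in the dorsal and 8736, 10614 and 7689 in the lateral wall (-2.05 ± 0.22, 4.15-fold). miR-139-5p, from an intron of the phosphodiesterase gene Pde2a, scored 655 to 1030 and 1663 to 2976 (-1.44 ± 0.24). This feature, like miR-132, miR-551b, miR-31, miR-149, miR-300, miR-381, miR-301a and the miR-135, miR-344 and miR-764 features below, was chosen after its values were seen.

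Other members of the neuron-enriched list had smaller differences or none past the threshold. miR-124, made by nearly all neurons, scored 72251, 117991 and 84551 in the dorsal and 153222, 268236 and 150347 in the lateral wall; the libraries did not overlap, but the difference of -1.03 ± 0.38 (95% interval -1.83 to -0.24) had an adjusted p of 0.0565 by limma. Its star form miR-124* was lower in the dorsal wall (-0.80 ± 0.24, adjusted p = 0.018 by limma), a call lost in 6 of 20 alternatives. Among them were trimmed-mean scaling, median centring and the omission of dorsal replicate 1 or lateral replicate 2. miR-128, which is abundant in mature neurons and carried by introns of R3hdm1 and Arpp21, scored 13056 to 17357 in the dorsal and 6071 to 16839 in the lateral wall (0.45 ± 0.31, 95% interval -0.20 to 1.09). The activity-induced miR-132 scored 186 to 289 and 172 to 612 (-0.64 ± 0.33). Among the mature forms without an asterisk named here, the neuron-enriched microRNAs therefore spanned log2 fold changes from -4.23 for miR-153 to 0.45 for miR-128. The scarce star forms miR-218-2* (-4.76 ± 0.61) and miR-218-1* (0.49 ± 0.70) lay beyond these ends.

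The miR-7 family had 3 of 8 features (37.5%, against 20.7% of all features) lower, none higher and a median of -0.82. miR-7a, encoded in part from an intron of Hnrnpk, scored 860, 661 and 505 in the dorsal and 3525, 3228 and 3059 in the lateral wall. Each lateral value was several times every dorsal one (-2.31 ± 0.27, 4.94-fold, adjusted p = 7.72e-07 by limma). miR-7b, which has the same seed, scored 68 to 88 and 175 to 279 (-1.50 ± 0.39). The call of miR-7b was lost in a fit to the 12 SVZ libraries and without replicate 1 of both walls. After centring on the median microRNA 2 features of the family were lower and 1 higher. The weakest of the 3 calls, miR-7a-2* (-0.76 ± 0.26, adjusted p = 0.0341), was lost in 12 of 20 alternative settings, among them the omission of dorsal replicate 1 or 2 or of lateral replicate 2 or 3.

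miR-193b and miR-365 were both lower in the dorsal wall. miR-365 has a gene beside that of miR-193b on chromosome 16 and another beside that of miR-193 on chromosome 11, and its score cannot be assigned to either. miR-193b scored 690, 768 and 419 in the dorsal and 4736, 5760 and 4346 in the lateral wall, an 8.1-fold difference (-3.02 ± 0.22, adjusted p = 1.02e-09 by limma). miR-365 scored 127, 201 and 129 against 543, 1140 and 648 (-2.30 ± 0.35), and miR-193, which shares the seed of miR-193b, 18, 34 and 16 against 43, 120 and 59 (-1.61 ± 0.46, a call lost without lateral replicate 2). This group of 5 features, like the other lists, was drawn up with earlier results of these data known, so its share is a description. The dorsal wall had 4 of the 5 lower (80%, against 20.7% of all features), and the median was -2.30. None of the 4 overlapped between the walls. Over all features, 23.9% had every lateral library above every dorsal one. The fourth of the lower features in this group, miR-193b*, had low scores of at most 29. Its call (adjusted p = 0.0493 by limma) held in 2 of 18 alternative settings.

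Several microRNAs outside the lists showed differences of similar size. miR-873, from an intron of Lingo2, a membrane protein gene expressed in neurons, scored 52, 66 and 37 in the dorsal and 729, 1034 and 376 in the lateral wall. The lowest lateral value was several times the highest dorsal one (12.8-fold, -3.68 ± 0.34, adjusted p = 6.79e-08 by limma), and its hairpin feature gave -4.35 ± 0.51. miR-551b scored 409, 508 and 781 against 3583, 4641 and 2275 (6.14-fold, -2.62 ± 0.26). miR-31 scored 25, 36 and 108 against 265, 255 and 237 (-2.42 ± 0.42), with lateral libraries close together and dorsal replicate 3 above the other dorsal libraries.

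Further features of this kind were miR-149, miR-135a and miR-135b. miR-149, from an intron of the glypican gene Gpc1, scored 8522, 10548 and 10582 in the dorsal and 23910, 25673 and 16747 in the lateral wall (2.21-fold, -1.14 ± 0.21). miR-135a scored 919, 1683 and 1132 against 3666, 5139 and 4284 (3.58-fold, -1.84 ± 0.23) and miR-135b 642 to 1516 against 2134 to 3293 (-1.20 ± 0.27). In all 3 the walls did not overlap. The calls of miR-149 and miR-135b were lost after centring on the median microRNA.

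Neighbouring or related loci gave further sets. miR-344, the most abundant member of a rodent microRNA group, scored 1535, 1719 and 2229 against 5769, 6295 and 4223 (-1.57 ± 0.26), and miR-344c (-1.20 ± 0.33), miR-344d (-1.56 ± 0.37) and miR-344b (-2.61 ± 0.84) were also lower in the dorsal wall. The calls of miR-344b and miR-344c were lost without lateral replicate 2, and that of miR-344b also without dorsal replicate 2. miR-764-5p, from an intron of the serotonin receptor gene Htr2c, scored 2, 4 and 0 in the dorsal and 32, 41 and 15 in the lateral wall (-3.51 ± 0.63), at levels where a score cannot be told from absence. miR-1247 lies in an exon of Dio3os, beside Dio3 at the end of the imprinted domain described next, and was no member of the cluster list. It scored 2, 8 and 0 in the dorsal and 70, 70 and 57 in the lateral wall (-4.47 ± 0.67, adjusted p = 2.11e-05 by limma), and its hairpin was listed at 0 in all dorsal libraries against 25, 15 and 14.

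The Dlk1-Dio3 cluster on chromosome 12 is an imprinted domain whose microRNAs are made from the maternal chromosome and are enriched in brain. Of its 108 tested features, of 154 in the table, 89 (82.4%) were lower in the dorsal wall, none was higher and 19 did not pass. The median was -2.29 and 107 log2 fold changes were negative. The scores of the list summed to 21549 to 31405 in the dorsal and 77660 to 128966 in the lateral libraries, without overlap. Without it, 92 of 699 features (13.2%) differed, 78 (11.2%) lower and 14 higher, with a median of -0.28. That the cluster was lower in the dorsal wall was known from these data when the list was drawn up, and its size is given here as a description.

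By position the lower features lay in each stretch of the domain. Of the microRNA genes less than 10 kb from their neighbours, the stretch from Mir770 to Mir136 had 22 of 25 features lower (median -2.34), that from Mir341 to Mir370 had 5 of 5 (median -2.63) and that from Mir379 to Mir3072 had 57 of 73 (median -2.20). The cluster made up most of chromosome 12, where 90 of 122 features were lower.

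miR-127, antisense to the imprinted gene Rtl1, scored 372, 643 and 394 in the dorsal and 2919, 3259 and 2115 in the lateral wall (5.97-fold, -2.58 ± 0.27, adjusted p = 1.48e-07 by limma). miR-411 scored 343, 318 and 425 against 1888, 2753 and 1756 (5.8-fold, -2.54 ± 0.24). Each lateral library was thus above every dorsal one by a wide margin. miR-370 scored 108, 90 and 248 against 833, 1097 and 895 (-2.79 ± 0.31), and miR-433, which lies near miR-127, 39, 66 and 92 against 416, 596 and 323 (-2.78 ± 0.36). Among mature forms named by size of difference the cluster gave miR-539-5p (-3.40 ± 0.49), miR-544-3p (-3.33 ± 0.41), miR-770-3p (-3.00 ± 0.51) and the star forms miR-127* (-2.97 ± 0.45), miR-411* (-2.90 ± 0.29) and miR-299* (-2.84 ± 0.37). miR-544-3p scored 28, 60 and 56 against 481, 780 and 274.

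Members that did not pass were mostly scarce: 18 of the 19 had a mean of at most 43.7 in the lateral wall. The exception was miR-381, with 552, 1159 and 1033 in the dorsal and 3469, 4851 and 209 in the lateral libraries (-0.80 ± 0.69, adjusted p = 0.484). Lateral replicate 3 stood below every dorsal library for miR-381. For miR-300, whose sequence is close to that of miR-381, the same library scored 867, the lowest lateral value but above the dorsal range of 351 to 801 (-1.77 ± 0.39). The only positive value of the cluster was that of miR-758, 0.50 ± 0.76, with a lateral mean of 5.

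**Figure D2:**
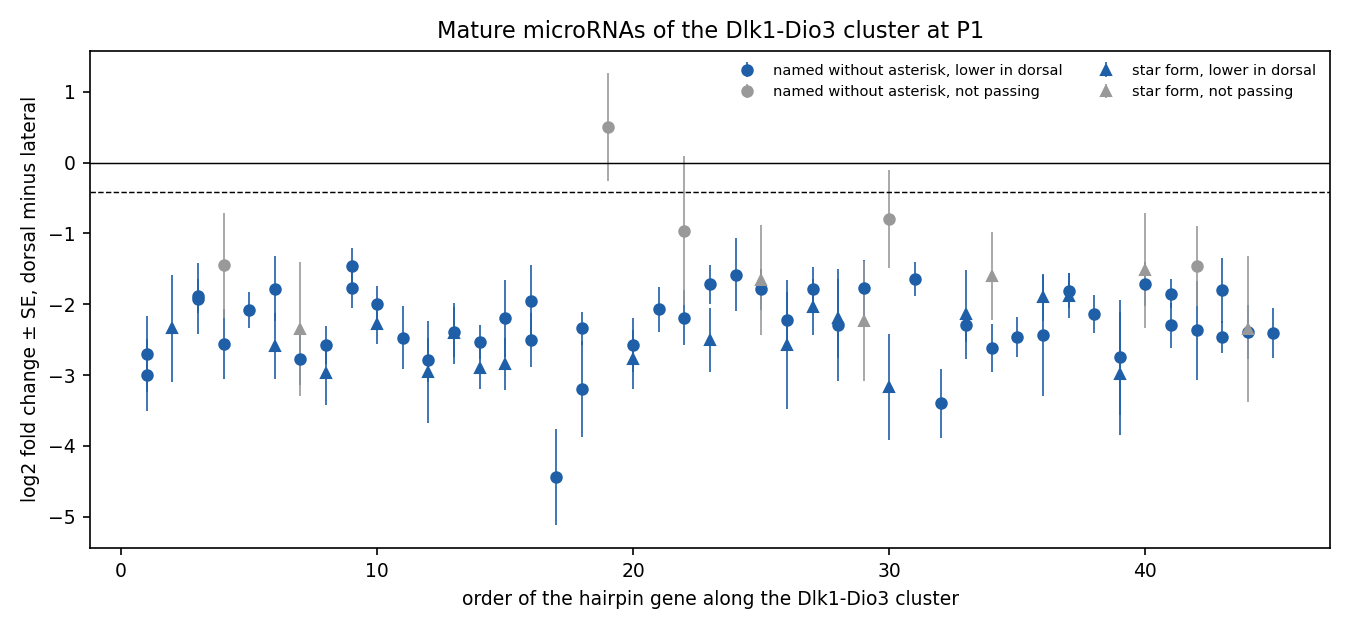
Mature forms of the Dlk1-Dio3 cluster are placed by the order of their hairpin genes along the cluster, with the log2 fold change, dorsal minus lateral, on the vertical axis; bars are standard errors. Circles are forms named without an asterisk and triangles star forms, blue is lower in the dorsal wall and grey did not pass, and the dashed line is the median of all 807 features, -0.41. Blue points occur from the first to the last genes of the order, and miR-758 at 0.50 is the only point above 0.

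Both arms of a hairpin could be compared in 192 pairs. Both were lower in the dorsal wall in 30, both higher in 0, 1 of them called in 44 and neither in 118. In no pair were the arms called in opposite directions. Only 8 mature forms named without an asterisk and 3 star forms were called higher, so opposite calls could hardly occur. The Dlk1-Dio3 cluster held 35 of the pairs, with both arms lower in 25 and 1 called in 10. Outside it both arms were lower in 5 of 157. Of single features, hairpins included, 20.7% of all, 82.4% of the cluster and 11.2% of those outside it were lower.

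The miR-15/16 family, which restrains the cell cycle through cyclins, was split. Of 20 tested features 1 was higher, 1 lower and 18 did not pass, with a median of -0.11. miR-195 scored 9005, 9676 and 8496 in the dorsal and 2318, 3670 and 4150 in the lateral wall. The dorsal values were 2.76-fold higher (1.46 ± 0.22, adjusted p = 1.66e-05 by limma), and the lowest dorsal library had more than the highest lateral one. miR-322, with the same seed but from the X-linked miR-322 to miR-450 cluster, scored 423, 602 and 722 against 1391, 1988 and 1574. The dorsal values were thus 2.87-fold lower (-1.52 ± 0.28, adjusted p = 0.000189 by limma). The other arm, miR-322*, was the more abundant one here and gave 0.01 ± 0.50, and the hairpin gave -0.33 ± 0.53. Neither of these passed. With trimmed-mean scaling the family had 3 features higher and 1 lower, and with median centring 4 and 1.

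The other members with this seed lay near 0. miR-16, the most abundant of the family, scored 22360 to 28657 in the dorsal and 25020 to 31976 in the lateral wall (-0.17 ± 0.20, 95% interval -0.58 to 0.23). miR-15a (-0.23 ± 0.24) and miR-15b (-0.02 ± 0.24) overlapped between the walls as well. miR-497, whose gene adjoins that of miR-195, scored 514 to 806 against 437 to 841 (0.14 ± 0.25). Of the 6 features of that pair of genes only miR-195 passed. Of 14 features in the miR-322 to miR-450 list only miR-322 passed, and the median was -0.46.

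Of 11 tested features of miR-130 and miR-301, the dorsal wall had 4 lower (36.4%, against 20.7% of all features) and none higher. All 4 came from the neighbouring genes Mir130b and Mir301b on chromosome 16. miR-130b scored 2675, 1512 and 2756 in the dorsal and 4483, 6653 and 9372 in the lateral wall (2.93-fold, -1.55 ± 0.29, adjusted p = 0.000243 by limma). Its star form (-1.41 ± 0.29), its hairpin (-1.77 ± 0.38) and miR-301b (54, 73 and 99 against 193, 397 and 184; -1.71 ± 0.38) were lower as well. miR-130a, with the same seed and far more abundant, scored 118376 to 152097 against 116634 to 132085 (0.07 ± 0.19). miR-301a scored 15771 to 21203 against 22328 to 28235 (-0.49 ± 0.18, adjusted p = 0.0637 by limma). After centring on the median microRNA the family had 3 features lower and 2 higher, and miR-130b did not pass.

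Only 14 features were higher in the dorsal wall, and 7 of them were mature or star forms whose dorsal mean reached 50 and whose libraries did not overlap. miR-574-3p, from an intron of Fam114a1, scored 328, 672 and 681 in the dorsal and 88, 196 and 153 in the lateral wall (3.82-fold, 1.94 ± 0.36, adjusted p = 0.000189 by limma). After miR-195 came miR-451, which is abundant in red blood cells, with 3838, 4839 and 4464 against 1806, 2395 and 1494 (2.34-fold, 1.23 ± 0.30, adjusted p = 0.00331). All alternatives kept these 3 calls.

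miR-9*, from the hairpins of the progenitor microRNA miR-9, scored 41556, 71793 and 45898 in the dorsal and 19130, 29180 and 25767 in the lateral wall (2.12-fold, 1.08 ± 0.27, adjusted p = 0.00504 by limma). The call was lost in a fit to the 6 libraries alone and with a replicate block by description number. miR-9 itself scored 97536 to 153067 against 72324 to 109186 and did not pass (0.53 ± 0.32, 95% interval -0.14 to 1.20). In the list of miR-9 and miR-92b 1 of 8 features passed, with a median of 0.51. With trimmed-mean scaling 4 of the 8 were higher, and with median centring 5 (median 1.11).

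miR-23a scored 4870, 5853 and 6162 against 2615, 4074 and 3979 (1.61-fold, 0.68 ± 0.20, adjusted p = 0.0134 by limma). The call was lost in 4 of 20 alternatives. They were a fit to the 6 libraries alone, a replicate block by description number, and the omission of lateral replicate 1 or of replicate 1 of both walls. miR-23b, a near relative of miR-23a, gave 0.18 ± 0.21. let-7a-1* was called at an adjusted p of 0.0449 (0.69 ± 0.24) and lost its call in 12 of 20 alternatives, among them the omission of any dorsal library or of lateral replicate 1 or 3. The remaining higher features were miR-99a, described next, miR-219-3p and pre-mir-142, described with the markers, and 5 with scores of at most 45, which were miR-1, miR-592, miR-877*, pre-mir-186 and pre-mir-221. miR-592, miR-877* and pre-mir-186 were named after their values were seen. The call of miR-592 was lost without dorsal replicate 2 or lateral replicate 1 or 3, and that of miR-877* without any of these or dorsal replicate 1.

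**Figure D3:**
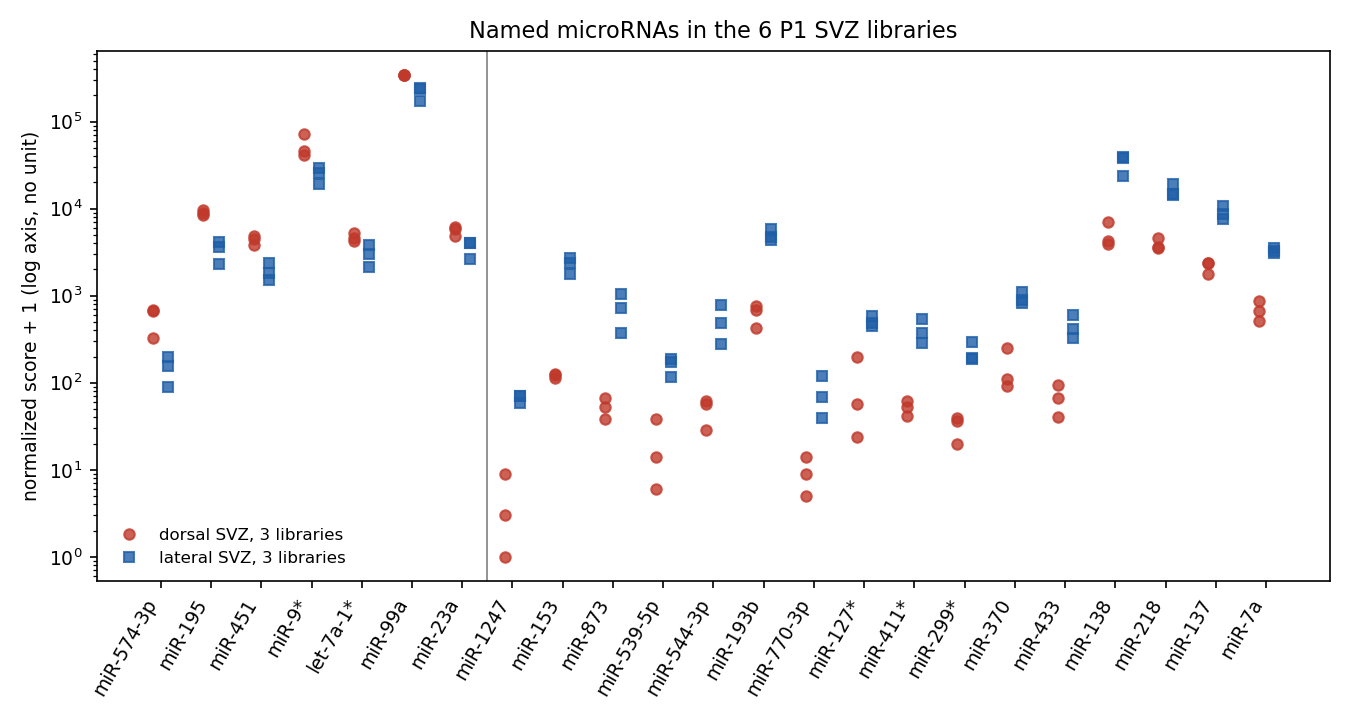
Scores plus 1 on a log axis in each of the 3 dorsal (red circles) and 3 lateral (blue squares) P1 libraries, for called mature and star forms whose mean reached 50 in the higher wall and whose walls did not overlap, all 7 higher in the dorsal wall (left of the line) and the 12 lower ones with the largest differences, and for miR-138, miR-218, miR-137 and miR-7a. The absence of overlap was a condition of choice except for miR-138, miR-218, miR-137 and miR-7a, which do not overlap either. miR-153 reaches at most 125 in the dorsal against at least 1772 in the lateral libraries.

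The microRNAs with the highest scores of all show how rank sets a value. miR-99a held rank 1 in all 3 dorsal libraries, with 344349, 342168 and 343283, and rank 2, 3 and 2 in the lateral ones, with 241387, 170264 and 236859. miR-125b-5p held rank 1 in all 3 lateral libraries, with 344698, 383038 and 338231, and rank 2 in all dorsal ones, with 241143, 239615 and 240397. The exchange of these ranks gave a log2 fold change of 0.68 ± 0.23 for miR-99a (adjusted p = 0.0337 by limma) and of -0.56 ± 0.19 for miR-125b-5p (adjusted p = 0.0356; a log2 fold change of 0.04 with median centring). The call of miR-99a was lost in 10 of 20 alternatives, among them the omission of any dorsal library or of lateral replicate 2, and that of miR-125b-5p with the omission of any 1 of the 6 libraries. miR-100, which has the seed of miR-99a, gave 0.10 ± 0.17, and miR-125a-5p, which has that of miR-125b-5p, -0.21 ± 0.16. In the list of both families 1 of 15 features was higher and 1 lower, with trimmed-mean scaling 2 higher and 0 lower, and with median centring 7 and 0.

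Several families tied to proliferation or differentiation had medians near 0, above the -0.41 of all features. The clusters of miR-17 to miR-92, which promote proliferation, had 1 of 33 features lower, miR-106b* (-1.17 ± 0.36, lost without dorsal replicate 2 or lateral replicate 2), and the list median was -0.14. Among let-7 microRNAs, known to build up during differentiation, 1 of 32 features was higher, and the median was 0.13. No feature passed by limma in the miR-30 (17 features), miR-26 (8), miR-200 (14) and miR-183 (9) lists, where 2, 0, 1 and 0 had an unadjusted p under 0.05, which does not show equal levels. With centring on the median microRNA the let-7 list had 15 features higher and the miR-17 to miR-92 clusters 3 higher and 0 lower. The miR-30 list then had 3 higher and the miR-26 list 2 higher, so these numbers depend on the scaling. The median changed sign for the miR-17 to miR-92 (-0.14 to 0.46), miR-30 (-0.02 to 0.59), miR-200 (-0.21 to 0.39) and miR-183 (-0.33 to 0.27) lists. That of the let-7 (0.13 and 0.73) and miR-26 (0.01 and 0.62) lists was above 0 both ways.

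Lower features were no more frequent in the miR-181 and miR-29 families and the Sfmbt2 cluster than the 20.7% over all features. The miR-181 family had 3 of 15 (20%), namely miR-181a (-0.67 ± 0.21), miR-181c (-0.98 ± 0.30) and miR-181d (-0.98 ± 0.32). All 3 calls were lost without dorsal replicate 1 or lateral replicate 2, and after centring on the median microRNA the family had 2 features higher and none lower. miR-29a, of a family that rises in maturing neurons and glia, was the only call of 11 (9.09%; -0.58 ± 0.19, lost without dorsal replicate 1 or 3 or lateral replicate 2, and a log2 fold change of 0.02 with median centring). The Sfmbt2 intronic cluster, a rodent array that is imprinted in the placenta, had 5 of 28 features lower (17.9%) and a median of -0.75, and 2 lower with trimmed-mean scaling or as a share of the microRNA score and 1 with median centring (median -0.15). Its miR-669c scored 18, 40 and 50 against 83, 124 and 128 (-1.70 ± 0.51), a call lost without dorsal replicate 1 or lateral replicate 2 or 3. The miR-23/27/24 clusters had 1 of 13 features higher (miR-23a), and 5 with median centring. The pair miR-221 and miR-222 had 1 of 5 (pre-mir-221, lost without dorsal replicate 2 or lateral replicate 3), and 3 with trimmed-mean scaling or median centring.

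**Figure D4:**
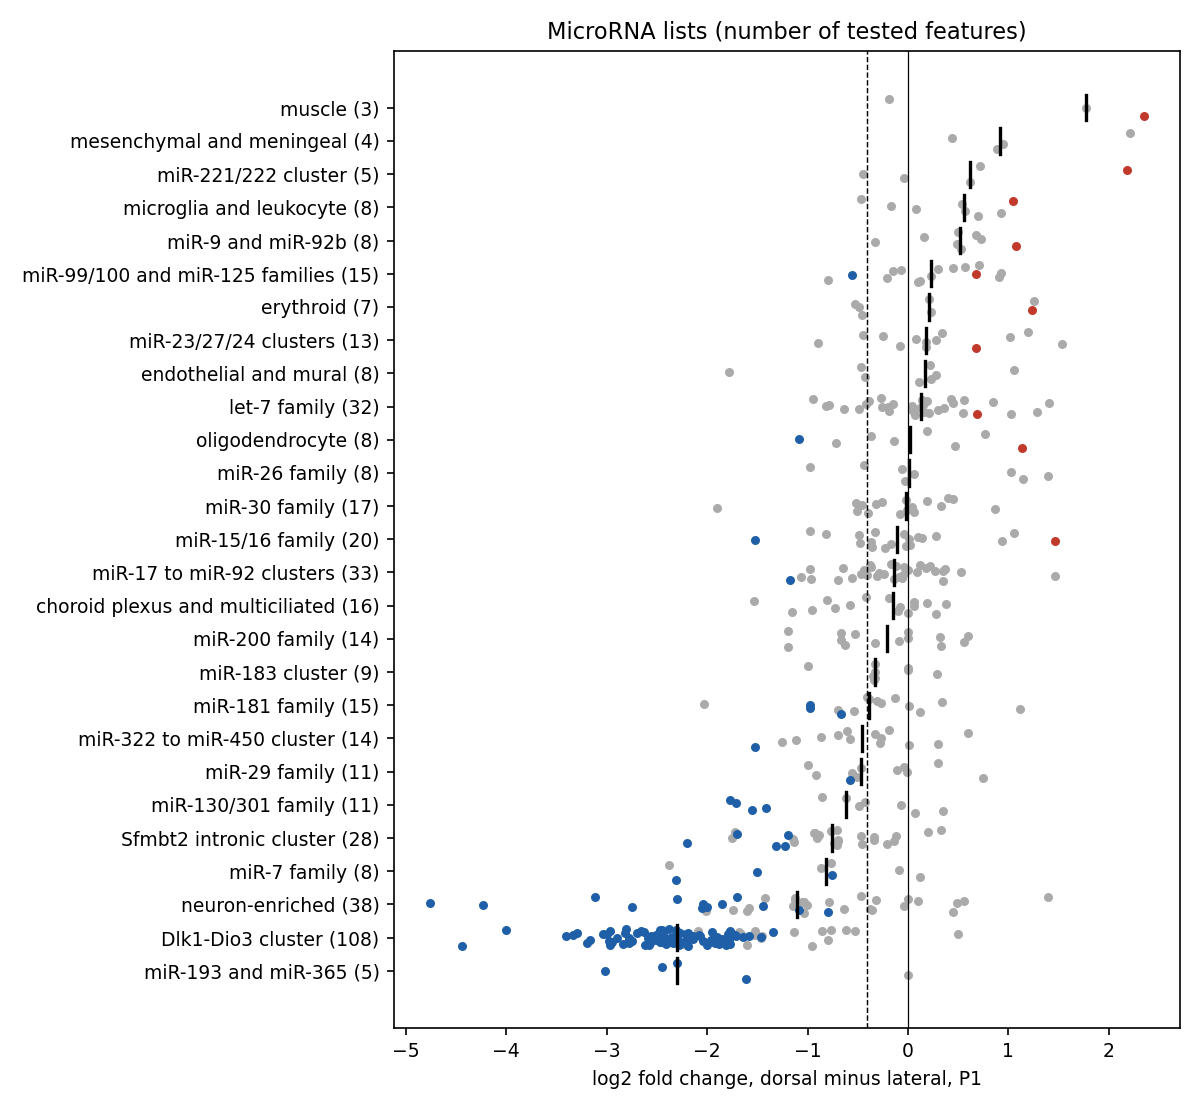
Log2 fold changes, dorsal minus lateral, of the tested features of each list with at least 3 of them, numbers of features in brackets; each point is a feature, blue lower and red higher in the dorsal wall at an adjusted p under 0.05, grey not passing, and the black bar is the list's median. The dashed line is the median of all 807 features, -0.41. The miR-193 and miR-365, Dlk1-Dio3 and neuron-enriched lists lie lowest, with medians of -2.30, -2.29 and -1.10.

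Markers of other cells that a dissection can hold were read for the same 6 libraries. Of the erythroid features 1 of 7 passed, miR-451. The list summed to 3981 to 5000 in the dorsal and 1622 to 2675 in the lateral libraries, and miR-451 itself made up most of each sum. The markers miR-144 (14 to 89 against 51 to 70) and miR-486 (1 to 8 against 4 to 5) did not pass. Of the microglia and leukocyte features 1 of 8 passed, pre-mir-142, with 273, 379 and 525 against 167, 212 and 170 (1.05 ± 0.33, adjusted p = 0.0228 by limma, lost without dorsal replicate 3 or lateral replicate 1 or 3). That list summed to 1107 to 1640 and 732 to 1317. With median centring 2 erythroid and 5 microglia and leukocyte features were higher. The part of blood and immune cells in the dorsal-higher features was not tested.

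Endothelial and mural markers had 0 of 8 features past the threshold by limma and 0 at an unadjusted p under 0.05, summing to 17324 to 19190 and 13312 to 17841. The endothelial miR-126-3p scored 3363 to 3899 against 2919 to 3726 (0.11 ± 0.32). Mesenchymal and meningeal markers summed to 142 to 826 in the dorsal and 166 to 233 in the lateral libraries, with 0 of 4 past the threshold and 1 at an unadjusted p under 0.05. Dorsal replicate 2 held the highest of these, with 268 for miR-199a-3p against 38 and 73 in the other dorsal libraries. With median centring 3 of the 8 endothelial and mural and 3 of the 4 mesenchymal features were higher in the dorsal wall. Choroid plexus and multiciliated markers summed to 5424 to 9108 and 7289 to 8110, with 0 of 16 past the threshold, 3 at an unadjusted p under 0.05 and 1 higher with median centring.

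Of 8 oligodendrocyte features 1 was higher and 1 lower, with trimmed-mean scaling 2 higher and 0 lower, and with median centring 3 and 0. miR-219-3p was higher in the dorsal wall with 113, 280 and 83 against 61, 89 and 44 (1.14 ± 0.37, adjusted p = 0.0301), although the walls overlapped, and miR-338-5p was lower with 34, 34 and 25 against 68, 62 and 68 (-1.08 ± 0.32, adjusted p = 0.0176). The first call was lost without dorsal replicate 2 or lateral replicate 1 or 3, the second without dorsal replicate 3 and with trimmed-mean scaling or median centring. miR-219-5p, the better known strand in oligodendrocytes, scored 71 to 126 against 110 to 247 (-0.72 ± 0.41). The muscle microRNA miR-1 was listed at 0 in the lateral libraries and scored 2, 3 and 10 in the dorsal ones. Hox cluster microRNAs, of the hindbrain and spinal cord, summed to at most 8, with 8 of 13 listed at 0 in all 6 libraries.

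The same comparison at P6 used other libraries, though the test shared its estimate of spread. There 164 features (20.3%) differed, 22 (2.73%) higher and 142 (17.6%) lower in the dorsal wall. Of the 167 features lower at P1, 109 were lower at P6 and 160 had a negative log2 fold change, where 495 of all 807 did. Of the 14 higher ones, 7 were higher at P6 and 10 had the same sign. Across all features the P1 and P6 differences correlated with r = 0.65, and with r = 0.56 outside the Dlk1-Dio3 list, given as a description because features of a cluster are not independent.

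Side by side, miR-153 gave -4.23 at P1 and -3.81 at P6, miR-218 -2.04 and -2.25, miR-551b -2.62 and -2.94, and miR-195 1.46 and 1.16. miR-873 (-3.68 and -1.77) and miR-365 (-2.30 and -0.88) had smaller differences at P6 and miR-344 (-1.57 and -3.06) a larger one, but the test of the change between ages did not pass for them (adjusted p = 0.116, 0.4 and 0.0995 by limma). miR-322 went from -1.52 to -0.42 (adjusted p of the change 0.4). The 1 feature called in opposite directions was miR-338-5p, at -1.08 and 0.95, with an adjusted p of 0.0559 for the change.

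For 2 features (0.248% of 807) the wall difference at P6 differed from that at P1. miR-708, named for this test, did not differ past the threshold at P1, with 8217, 5943 and 7644 in the dorsal and 7059, 6875 and 7291 in the lateral wall (0.03 ± 0.20). At P6 it scored 2814, 2017 and 2969 against 12395, 12786 and 10709. miR-219-3p went from the values above to 1900, 1532 and 1882 against 91, 163 and 136.

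**Figure D5:**
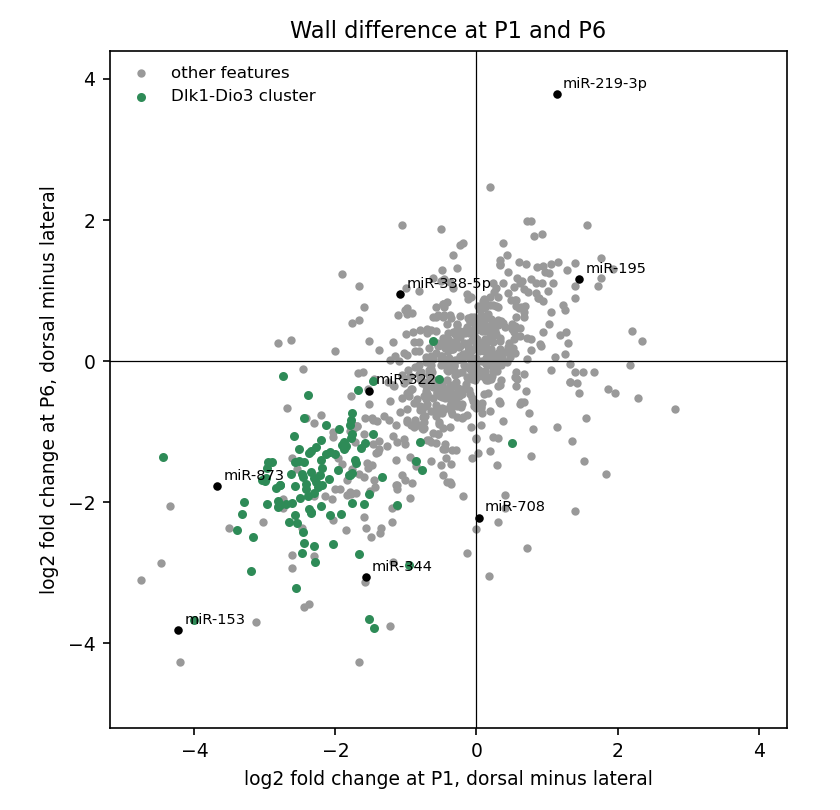
Each point is 1 of the 807 tested features, with the log2 fold change, dorsal minus lateral, at P1 on the horizontal and at P6 on the vertical axis; green points belong to the Dlk1-Dio3 cluster and black labelled points are named in the text. The green points gather at the lower left, lower in the dorsal wall at both ages, while miR-708 lies at 0.03 at P1 and -2.22 at P6.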

How the data were processed

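Total RNA from dissected tissue had been extracted with a column kit and small fragments gel purified and read on a SOLiD machine, per the labels' protocols. The authors' deposited table holds a score per feature and library, a normalized value rounded to whole numbers; Bowtie, DESeq and mm9 are named in the submitters' processing notes, and the normalization steps are not given in the sources used here. Values followed 1 rank distribution times a factor, so depth is unknown, count models could not be fitted and no counting interval is given.

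From the scores, log2(value + 1) was fitted in limma 3.58.1 (R 4.3.3) with a mean for each of 8 groups over all 21 libraries, a mean-variance trend and two-sided tests, adjusted by Benjamini-Hochberg over 807 microRNA features with at least 10 in at least 3 libraries. This scale understates changes of low features. The fit left 13 residual degrees of freedom. With 3 libraries against 3 an exact permutation test of 1 feature cannot go below 0.1, so none is given. Named features are called mature forms whose mean reached 50 in the higher wall and whose walls did not overlap, up to 12 each way by size of difference, the members of small lists, up to 4 called and 2 opposed members of larger lists, the 12 most abundant forms, their other arms and hairpins, and forms sharing a seed; exceptions are marked in the text. The members and the lists were chosen with earlier results of these data known. The fitting code was tested on simulated data.

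RefSeq sequences were matched through later microRNA names, assigned by hand; 672 of the 807 features matched a RefSeq microRNA gene. Neighbouring microRNA genes (within 10 kb) come from RefSeq and host genes from GENCODE, both of GRCm38, a later build than that of the notes, and no coordinates are given. Near-identical family members may share reads, and microRNAs from several genes cannot be assigned to 1 of them. The alternatives, 20 in all, covered the pseudocount, the filter, the scaling, the libraries fitted, the trend, a replicate block and the omission of libraries.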

Additional observations from a re-analysis of the deposited data

Results flagged for a closer look

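The difference between the walls changed between the ages, by a test of the interaction of wall and age in the same limma fit, in 2 of 807 features, while 71 had an unadjusted p under 0.05. For miR-708 the log2 fold change, dorsal minus lateral, was lower at P6 than at P1 by -2.24 ± 0.28 (adjusted p = 4.61e-05). At P1 all 6 libraries lay between 5943 and 8217 with the walls overlapping, and at P6 all 3 lateral libraries lay above all 3 dorsal ones. For miR-219-3p it was higher at P6 by 2.65 ± 0.53 (adjusted p = 0.0195). Several omissions ended that call. At P1 they were dorsal replicate 1 (adjusted p by limma 0.0587) and 3 (0.0625) and lateral replicate 1 (0.0528) and 2 (0.0518), and at P6 dorsal replicate 3 (0.0731) and lateral replicate 1 (0.0873). A fit to the 12 SVZ libraries ended it too (0.256), while that of miR-708 held in each of the alternatives run for it, with adjusted p up to 0.00616.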

How the results depend on the processing

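The count of features that differed stayed between 135 and 217 in all alternatives except the fit to the 6 P1 libraries, which gave 105 (7 higher and 98 lower in the dorsal wall) and kept 100 of the 181. The number higher moved from 14 to 34 with trimmed-mean scaling, to 103 with libraries centred on the median microRNA and to 22 as a share of the microRNA score. Leaving out 1 library gave 137 to 179 calls, 8 to 20 higher and 117 to 166 lower; the number higher was 8 without dorsal replicate 2 and 9 without lateral replicate 3. Leaving out both libraries numbered 1, which have the highest tRNA share of their wall, was chosen after seeing the data and gave 135 calls, 11 of them higher. Titles and descriptions number the libraries differently. The deviations of same-numbered libraries correlated with r of 0.01 to 0.08. With 3 libraries per wall this cannot show whether the numbers pair them, and the labels do not say. With a replicate block by title number 199 features passed (17 higher, 182 lower). A replicate block by description number gave 161 (5 higher, 156 lower). Of 93 called features named by the rule or in the text, 45 passed in all alternatives that held them. Centring on the median microRNA turned miR-125b-5p to 0.04 (adjusted p = 0.93 by limma) and miR-29a to 0.02 (0.954). The Dlk1-Dio3 cluster had 63 to 90 features lower in every alternative. With depth unknown, scores near 0 cannot be told from absence.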
